A study of Homo sapiens with 6 samples.

Results

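The solute carrier genes that move amino acids, glucose and monocarboxylates across membranes were described in WM164, an established human melanoma cell line, by RNA sequencing. Members were all protein-coding genes whose symbol places them in solute carrier (SLC) family 1, 2, 3, 6, 7, 16, 36, 38 or 43. The rule used symbols and gene type and no measured value, and gave 87 members of 58870 genes in the count table. The study made 6 libraries from total RNA, 3 of cells overexpressing green fluorescent protein (GFP) as the control and 3 of cells overexpressing T-MGM. T-MGM is a fusion of 2 transcription factors, MITF (the melanocyte master regulator, in its melanocytic isoform) and the small MAF protein MAFG, tethered by a flexible linker. All 6 libraries came from the same cell line, kept in RPMI with 5% fetal bovine serum. The study's methods describe lentiviral delivery from an EF1α promoter with blasticidin selection, so expression was constitutive in selected cells. The labels do not say whether the 3 libraries of a group were separate cultures, so the p-values measure the spread between these libraries, which may be technical.

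SLC proteins are gates for nutrients. The SLC2 proteins (GLUTs) let glucose and related sugars pass down their gradient, and the SLC16 proteins (MCTs) carry lactate, pyruvate and related acids, several of them together with a proton. Amino acids enter by several routes: SLC1, SLC6 and SLC38 proteins use the sodium gradient to concentrate them, SLC7 proteins mostly exchange an amino acid inside for another outside, SLC36 proteins move them with protons and SLC43 proteins by facilitated diffusion. Several SLC7 proteins reach the cell surface only when bound to a heavy chain of family SLC3. In melanoma cells these routes feed growth signalling through leucine, glutathione synthesis through cystine, and the export of lactate.

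Library totals were 35057239 to 38738065 counts with GFP and 44577774 to 59250663 with T-MGM. Replicates differed from each other by more than counting noise in every pair. Neither construct gene was raised as overexpression would raise it. MAFG had 2458 ± 70.3 normalized counts with GFP and 2358 ± 34.9 with T-MGM (SD, n = 3 each), lower in every T-MGM library than in any GFP library. The nearest libraries stood at 2397.1 with GFP and 2395.7 with T-MGM. MAFG did not pass, at a log2 fold change of -0.06 (DESeq2, adjusted p = 0.236). MITF had 19161 ± 46.9 and 20269 ± 165, a log2 fold change of 0.08 (standard error 0.02; DESeq2, adjusted p = 4.8e-07). The study reports expression of the fusion in WM164 cells and a higher AXL transcript by quantitative PCR. Within these counts every direction below still rests on the labels, and T-MGM stands for the libraries labelled so. All 7 melanocytic markers examined were detected. Their summed TPM (a level scaled for transcript length and depth) was 1144 to 1168 with GFP and 972 to 1009 with T-MGM. On counts, MITF, SOX10 and PMEL passed higher by 0.05 to 0.11 on the log2 scale, while MLANA (-0.68), TYR (-0.35), S100B (-0.21) and DCT passed lower, DCT by as much as -2.49. The direction of the first 3 depended on the scale. In TPM, MITF averaged 138.4 with GFP and 132.5 with T-MGM, PMEL 252 and 237.1, and SOX10 416 and 402.6. Only SOX10 overlapped between groups in TPM. The fibroblast markers summed to 4.11 to 4.64 and 4.54 to 6.72 TPM, and of the 4 tested LUM (0.77), COL1A1 (1.23) and PDGFRB (1.37) passed higher, from at most 82 raw counts for the last 2. Keratinocyte markers summed to 20.4 to 21.9 and 19.6 to 21.3 TPM, nearly all of it KRT10, and those of endothelial cells and leukocytes to at most 0.34 and 0.12 TPM. KRT5, KRT14 and KRT1 had at most 5 counts in any library and PTPRC, which defines leukocytes, at most 2.

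The transporters differed widely in level. Of the 87 genes, 34 had a mean TPM over 1 and 14 a mean TPM over 10, while 30 stayed at or under 3 counts in every library, which was taken as the detection floor, and 7 of those had no count at all. A floor of 3 counts corresponds to 0.0506 to 0.0856 CPM (counts scaled to a fixed library total), depending on the library. The summed TPM of all 87 genes was 962 to 997 with GFP and 941 to 1000 with T-MGM, so the groups overlapped in the total.

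The most abundant transporter transcript was that of SLC43A3, a carrier of purine nucleobases, at 244 ± 17.3 TPM with GFP and 197 ± 12.6 TPM with T-MGM. SLC16A3 came next. It encodes MCT4, the carrier used by glycolytic cells to release lactate, and stood at 122 ± 1.95 TPM with GFP and 155 ± 0.415 TPM with T-MGM. SLC7A5, the light chain of the large neutral amino acid exchanger LAT1, stood at 72.0 ± 1.5 and 107 ± 1.86 TPM (all SD, n = 3). The glucose transporter SLC2A1 (GLUT1) and then the creatine transporter SLC6A8 followed in both groups. Below them the order changed between groups. SLC2A3 lay above SLC3A2 with GFP, with 49.7 TPM as its lowest library against 49.4 as the highest of SLC3A2, and below it with T-MGM, where SLC3A2 overlapped with SLC6A8. SLC1A4 lay above SLC7A1 with GFP and below it with T-MGM, where its libraries overlapped with those of SLC16A1. With GFP, SLC16A1 and SLC38A2 overlapped.

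**Figure D1:**
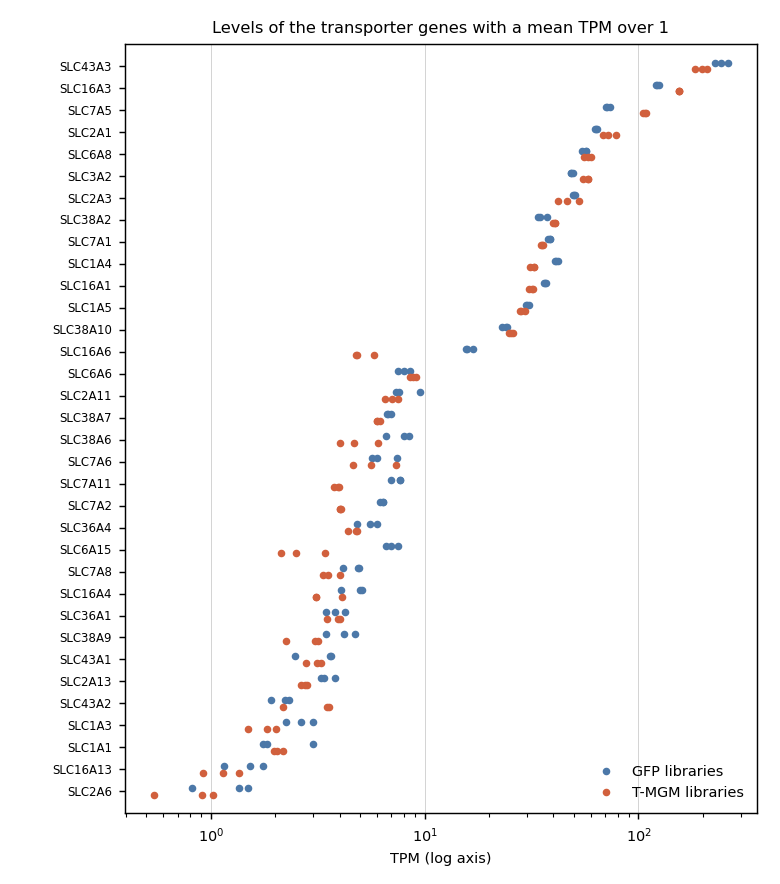
TPM (log axis) of the 34 transporter genes with a mean TPM over 1, ordered by their mean over the 6 libraries, with a point for each GFP library and each T-MGM library. SLC43A3, SLC16A3 and SLC7A5 lead the order in both groups, and SLC16A6 and SLC6A15 show the widest gaps between groups.

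Next, the response to T-MGM was tested gene by gene with DESeq2 on the counts, with adjustment over all 19135 genes that received an adjusted p. Of the 87 transporters 46 were tested; 11 others had more than 3 counts in some library but too few for an adjusted p, and the remaining 30 were at the floor. At an adjusted p at or under 0.05, 14 transporters were higher and 11 were lower with T-MGM. Over all genes tested, 19.2% passed in the higher and 19.2% in the lower direction. The 14 and 11 transporters are out of the 46 tested. Of the 19 transporters that averaged 1000 normalized counts or more, 16 passed, against 68% of the 6577 such genes in the whole table. The part of abundance in the number that passed was not tested. The median log2 fold change was 0.05 over the 46 transporters and -0.00 over all genes tested. The groups had no overlap in normalized counts for 26 of the 46 transporters, 14 higher and 12 lower; the same held for 46.8% of all tested genes.

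Most changes were small. Of the 25 transporters that passed, 21 changed by 2-fold or less. A change over 2-fold was called for 4 genes, namely SLC6A9 and SLC38A1, which rose, and SLC6A15 and SLC16A6, which fell; the backgrounds are 3.26% of all tested genes called higher and 1.36% called lower. The balance of directions depended on the scale. With total counts as scaling, 11 transporters passed higher and 14 lower. With limma on log2 of the deposited TPM plus 1, 6 passed higher and 14 lower, on a scale where the median gene stood at -0.13. Without GFP replicate 3, 7 passed lower. In bulk RNA, fewer cells that express a gene and less RNA per cell cannot be told apart.

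**Figure D2:**
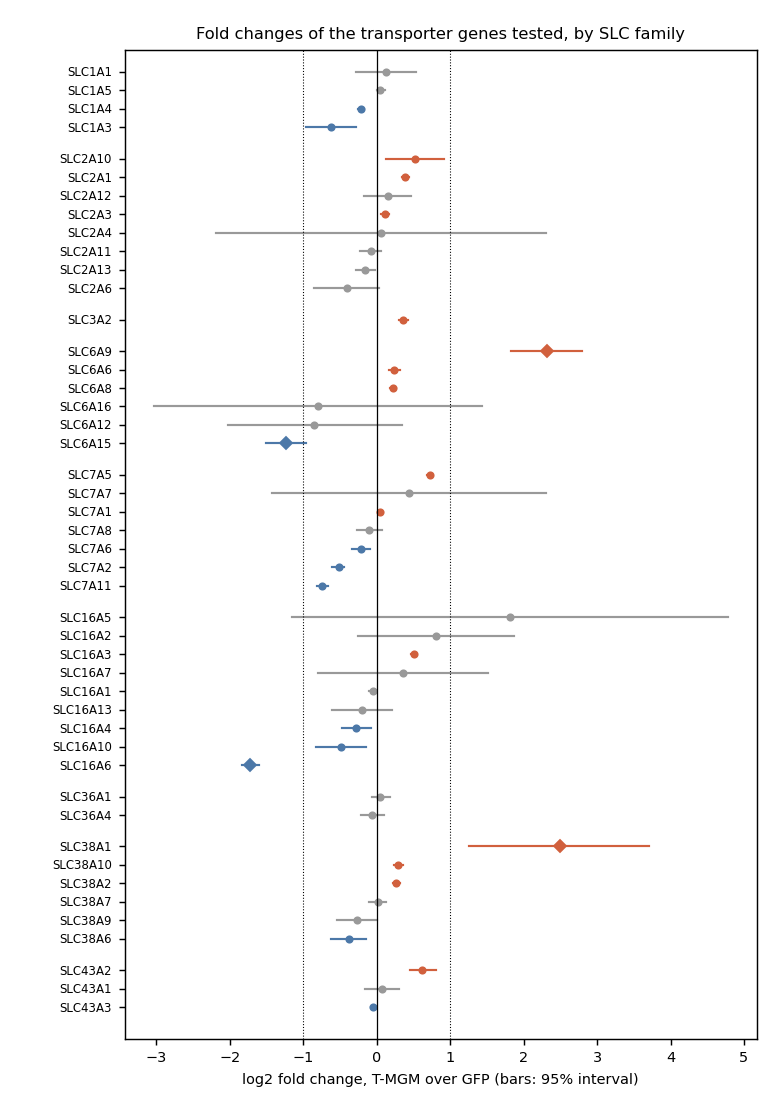
Log2 fold change of T-MGM over GFP (horizontal axis) with its 95% interval for the 46 transporter genes tested, grouped by SLC family. Red marks genes that passed higher, blue genes that passed lower and grey the rest, with diamonds for the 4 genes changed over 2-fold; dotted lines stand at a log2 fold change of 1 in each direction.

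Of the 4 genes called, SLC6A9 and SLC6A15 belong to family SLC6, SLC38A1 to SLC38 and SLC16A6 to SLC16. SLC6 had 19 members, of which 10 were at the floor, 6 were tested, 3 passed higher and 1 passed lower. SLC6A9 (ENSG00000196517.11; GRCh38 chromosome 1, 43991500 to 44031467, minus strand) encodes GlyT1, a sodium-dependent glycine importer. Its normalized counts were 22.8, 29.2 and 44.6 with GFP and 171, 176 and 136 with T-MGM. Every T-MGM library lay well above every GFP library. The log2 fold change was 2.32 (standard error 0.25, 95% interval 1.83 to 2.80), a 4.98-fold rise with an adjusted p of 1.84e-19 (DESeq2). The level stayed low all the same, at 0.26 ± 0.0781 TPM with GFP and 1.05 ± 0.197 TPM with T-MGM. With limma on TPM plus 1 the difference was 0.70 on the log2 scale, past the adjusted p threshold (0.00265) but not over 2-fold. At such a level a pseudocount of 1 shrinks the difference, and with a pseudocount of 0.1 it was 1.68 (limma, adjusted p = 0.00298). The annotation places CCDC24 on the other strand over part of SLC6A9, so the reads could not be assigned with certainty if the libraries were not stranded.

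SLC6A15 (ENSG00000072041.17; chromosome 12, 84859491 to 84913629, minus strand) moved the other way. It encodes B0AT2, a sodium-dependent carrier of proline and branched-chain amino acids. Normalized counts were 1403, 1269 and 1350 with GFP and 481, 662 and 562 with T-MGM, with no overlap. The log2 fold change was -1.24 (standard error 0.14; DESeq2, adjusted p = 1.54e-18), which left 0.424 of the GFP level. On the TPM scale the difference was -1.14 by limma with a pseudocount of 1. Both remaining changes in the family were slight rises: SLC6A8, the creatine transporter, by a log2 fold change of 0.22 and SLC6A6, the taurine transporter, by 0.24 (DESeq2, adjusted p = 3.28e-27 and 2.34e-08). SLC6A8 has a near-identical pseudogene copy, so its counts are uncertain, and on the TPM scale its difference of 0.05 did not pass (limma, adjusted p = 0.357). SLC6A2, SLC6A3 and SLC6A4, the noradrenaline, dopamine and serotonin transporters of neurons, had at most 6 counts in any library.

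**Figure D3:**
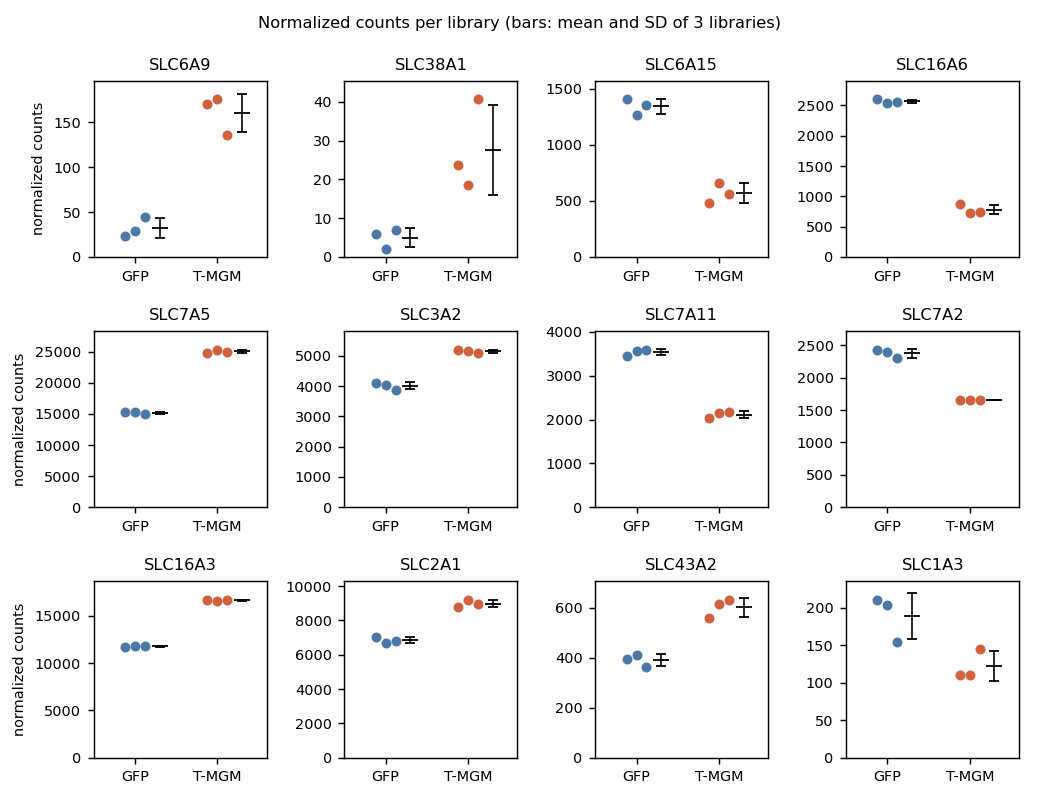
Normalized counts (vertical axis, from 0) of 12 transporter genes in each of the 3 GFP and 3 T-MGM libraries, with the mean and SD of each group as bars. The 12 genes shown were chosen among those that passed, and the groups do not overlap in any of them. Over all 46 transporters tested, 26 had no overlap, as did 46.8% of all tested genes. The relative gap is widest for SLC6A9, SLC38A1, SLC6A15 and SLC16A6.

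Family SLC38 had 11 members, 3 of them at the floor; 6 were tested, 3 passed higher and 1 passed lower. SLC38A1 (ENSG00000111371.15; chromosome 12, 46183063 to 46270017, minus strand) encodes SNAT1, a sodium-coupled glutamine importer. It was barely detected, at 5, 2 and 6 raw counts with GFP and 26, 19 and 55 with T-MGM. The T-MGM libraries were all higher, also after scaling for depth. The log2 fold change was 2.49 (standard error 0.62, 95% interval 1.26 to 3.71; DESeq2, adjusted p = 2.81e-04), and the interval covers folds from 2.40 to 13.1. At 0.16 ± 0.01 TPM with T-MGM it was still far under its relative SLC38A2 (SNAT2), which stood at 40.5 ± 0.65 TPM. SLC38A2 itself had 6246, 6450 and 6314 normalized counts with GFP and 7504, 7720 and 7591 with T-MGM, a log2 fold change of 0.26 (standard error 0.02; DESeq2, adjusted p = 2.26e-27). SLC38A10, a less studied member, rose by 0.29 on the log2 scale (standard error 0.03; DESeq2, adjusted p = 6.78e-18). On TPM plus 1 its difference was 0.09 and did not pass (limma, adjusted p = 0.121). SLC38A6 fell by 0.38 on the log2 scale (DESeq2, adjusted p = 0.00521). That adjusted p rose to 0.0659 without GFP replicate 3 and to 0.0594 without T-MGM replicate 3. SLC38A9, the arginine sensor of the lysosome, had a log2 fold change of -0.27 (standard error 0.14) that did not pass (DESeq2, adjusted p = 0.113).

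A promoter window of SLC38A1 in the RefSeq table (GRCh38.p14) is shown because it holds an M-box, the extended E-box bound by MITF in pigment genes. The capitals mark TCATGTG. Outside the stretch printed, the same window also holds a match to TGATGNAA, the ATF4 response element core. The window belongs to a RefSeq start inside the gene, and the other RefSeq window of SLC38A1 holds none of the motifs searched.

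SLC38A1, chr12:46266575-46266634, minus strand: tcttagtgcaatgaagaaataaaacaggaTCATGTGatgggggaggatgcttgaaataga

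SLC6A9, chr1:44031473-44031532, minus strand: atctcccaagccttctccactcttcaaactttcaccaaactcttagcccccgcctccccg

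The SLC6A9 stretch is printed beside it as the promoter of the other transporter called higher; none of the 5 motifs searched is in its window, which says only that these letters are absent there.

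Family SLC7 and its heavy chain SLC3A2 form the heterodimeric exchangers. SLC7 had 13 members, 5 at the floor; 7 were tested, 2 passed higher (SLC7A5 and SLC7A1) and 3 lower (SLC7A11, SLC7A2 and SLC7A6). The summed TPM of the family was 135 ± 1.59 with GFP and 160 ± 3.44 with T-MGM, and SLC7A5 carried most of it. SLC7A5 (ENSG00000103257.9; chromosome 16, 87830023 to 87869507, minus strand) takes up leucine and other large neutral amino acids. It had 15234, 15325 and 14966 normalized counts with GFP and 24828, 25281 and 24974 with T-MGM. The 2 groups were separated by many times their spread. The log2 fold change was 0.72 (standard error 0.02, 95% interval 0.69 to 0.75), a 1.65-fold rise whose DESeq2 adjusted p was too small to be stored; edgeR gave 0.72 as well with an adjusted p of 7.23e-18. Pseudogene copies of SLC7A5 exist in the genome, and reads they share would not be counted as unique.

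SLC3A2, the CD98 heavy chain that carries SLC7A5, SLC7A11 and others to the membrane, rose less. Normalized counts were 4092, 4054 and 3876 with GFP and 5199, 5152 and 5091 with T-MGM, a log2 fold change of 0.36 (standard error 0.03; DESeq2, adjusted p = 3.77e-34). The 232 other genes measured within 10 Mb of SLC3A2 on chromosome 11 had a median log2 fold change of 0.25; the part of the neighbourhood in this result was not tested. Around SLC7A5 the median was 0.05.

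SLC7A11 (chromosome 4, 138164097 to 138242349, minus strand), the xCT light chain that imports cystine in exchange for glutamate and so feeds glutathione synthesis, fell. It had 3455, 3573 and 3591 normalized counts with GFP and 2034, 2144 and 2166 with T-MGM. No library of either group overlapped with the other group. The log2 fold change was -0.74 (standard error 0.04; DESeq2, adjusted p = 4.21e-88), that is 0.598 of the GFP level, and an antisense gene, SLC7A11-AS1, overlaps the locus. SLC7A2, a carrier of arginine and other cationic amino acids, fell by 0.52 (standard error 0.04; DESeq2, adjusted p = 2.43e-34), whereas SLC7A1, the main cationic amino acid carrier, was nearly level at 0.04 (standard error 0.02; DESeq2, adjusted p = 0.0368). SLC7A1 no longer passed when any library other than GFP replicate 1 was left out, and passed in the opposite direction, at -0.11, with limma on TPM plus 1 (adjusted p = 0.03). SLC7A6, an exchanger of arginine for neutral amino acids, had a log2 fold change of -0.22 (DESeq2, adjusted p = 0.00213) although its normalized counts overlapped between groups. SLC7A8 (LAT2) did not pass, at -0.10 with a 95% interval of -0.27 to 0.07.

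Ratios of raw counts taken within a library are free of the scaling between libraries. SLC7A5 over SLC7A11 was 4.41, 4.29 and 4.17 with GFP and 12.2, 11.8 and 11.5 with T-MGM, a 2.76-fold shift between light chains that share a heavy chain. Relative to SLC3A2, SLC7A5 went from 3.79 ± 0.07 to 4.86 ± 0.075 and SLC7A11 from 0.884 ± 0.041 to 0.411 ± 0.018 (SD, n = 3 each). None of these ratios overlapped between groups. They are ratios of transcripts and carry gene length with them, so their size cannot be read. Their change between groups is not free of GC content, which was 61.2% for SLC7A5 and 35.4% for SLC7A11. The part of GC content in these ratios was not tested.

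**Figure D4:**
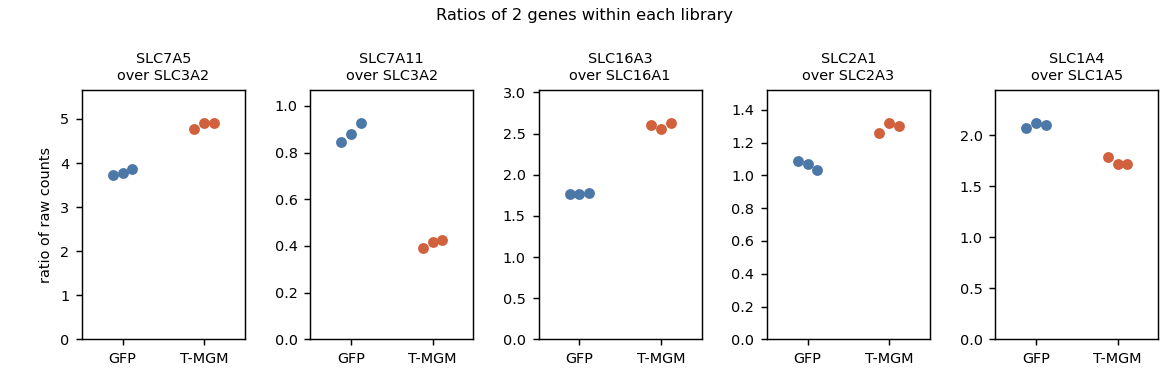
Ratio of the raw counts of 2 genes within each library (vertical axis, from 0), for 5 pairs of transporters in the 3 GFP and 3 T-MGM libraries. Each pair separates the groups, with SLC7A11 over SLC3A2 averaging 0.884 with GFP and 0.411 with T-MGM, and SLC16A3 over SLC16A1 averaging 1.77 and 2.60.

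Promoter stretches of both subunits of LAT1 are shown as the members of this pair that rose together. For SLC7A5 the capitals mark CACGTG, the E-box core that MITF and other basic helix-loop-helix proteins bind. For SLC3A2 they mark a match to TGACNNNGC, the antioxidant response element core bound by small MAF dimers. This SLC3A2 window belongs to a RefSeq start inside the gene. Other matches lie outside the stretches printed. The SLC7A5 window also holds a TGACNNNGC match at -2 from its start. The SLC3A2 window also holds a TGATGNAA match at 38, and another SLC3A2 window holds TGCTGA, the core of the MAF site, at -8.

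SLC7A5, chr16:87869608-87869667, minus strand: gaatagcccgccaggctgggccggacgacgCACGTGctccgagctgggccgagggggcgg

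SLC3A2, chr11:62881633-62881692, plus strand: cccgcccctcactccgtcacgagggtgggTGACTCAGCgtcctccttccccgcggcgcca

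The monocarboxylate family SLC16 had 14 members, 3 at the floor; 9 were tested, 1 passed higher (SLC16A3) and 3 lower (SLC16A6, SLC16A10 and SLC16A4). SLC16A6 (ENSG00000108932.12; chromosome 17, 68267026 to 68291267, minus strand) encodes MCT7, which exports ketone bodies. It was the most strongly reduced transporter that was called. Normalized counts were 2599, 2546 and 2554 with GFP and 868, 725 and 745 with T-MGM. The log2 fold change was -1.72 (standard error 0.05; DESeq2, adjusted p = 2.76e-213), or 0.304 of the GFP level, and TPM fell from 16.1 ± 0.67 to 5.13 ± 0.595. ARSG lies over it on the other strand. The genes within 10 Mb of SLC16A6 had a median log2 fold change of 0.04.

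SLC16A3 (MCT4; chromosome 17, 82217934 to 82261129, plus strand) went the other way. It had 11718, 11868 and 11785 normalized counts with GFP and 16661, 16601 and 16632 with T-MGM, a log2 fold change of 0.50 (standard error 0.02; DESeq2, adjusted p = 2.06e-186), and CSNK1D overlaps it on the other strand. SLC16A1 (MCT1), which carries lactate in either direction, stood at -0.05 (standard error 0.02; DESeq2, adjusted p = 0.0535), and passed without T-MGM replicate 2 (0.0493). It also passed lower with total counts as scaling, at -0.11 (DESeq2, adjusted p = 3.39e-05), and on TPM plus 1, at -0.21 (limma, adjusted p = 0.00309), but stood at 0.01 with the offset for GC content and length. The ratio of SLC16A3 to SLC16A1 was 1.77, 1.77 and 1.78 with GFP and 2.61, 2.56 and 2.63 with T-MGM, and that of SLC16A6 to SLC16A1 went from 0.386 ± 0.0069 to 0.122 ± 0.013. SLC16A10 (TAT1), an aromatic amino acid carrier, fell by 0.49 and SLC16A4 by 0.28 on the log2 scale (DESeq2, adjusted p = 0.0138 and 0.0177). SLC16A10 no longer passed in 3 of the 6 fits that left out a library, namely those without GFP replicate 1 (0.0609) and without T-MGM replicate 2 (0.0907) or 3 (0.0605).

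The glucose transporters of family SLC2 counted 14 members, 4 at the floor; 8 were tested, 3 passed higher and none lower. SLC2A1 (GLUT1; chromosome 1, 42925353 to 42958893, minus strand), the basal glucose carrier of most cells, had 7048, 6699 and 6770 normalized counts with GFP and 8783, 9175 and 8948 with T-MGM. All 3 T-MGM libraries were higher, by a log2 fold change of 0.39 (standard error 0.02; DESeq2, adjusted p = 5.63e-56). SLC2A3 (GLUT3), a carrier of higher affinity, changed less, by 0.11 (standard error 0.02; DESeq2, adjusted p = 4.46e-05), and its sign turned to -0.10 on the TPM scale; SLC2A14 is a near-identical copy, so reads of SLC2A3 could be lost to it. The ratio of SLC2A1 to SLC2A3 went from 1.06 ± 0.032 to 1.29 ± 0.03. SLC2A10 (GLUT10) was scarce, at 88.7, 72.5 and 110 normalized counts with GFP and 150, 121 and 119 with T-MGM. Its log2 fold change of 0.52 (standard error 0.20; DESeq2, adjusted p = 0.0283) no longer passed without GFP replicate 1 (0.0807), GFP replicate 2 (0.193) or T-MGM replicate 1 (0.196). The insulin-responsive SLC2A4 (GLUT4) had at most 5.71 normalized counts, and SLC2A2 (GLUT2) of liver and pancreas at most 1 count.

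In family SLC1, which holds the sodium-driven glutamate carriers and the neutral amino acid exchangers, 4 of 7 members were tested, none passed higher and 2 passed lower. SLC1A4 (ASCT1), which exchanges serine, alanine and cysteine, had 8820, 8724 and 8611 normalized counts with GFP and 7585, 7527 and 7447 with T-MGM, a log2 fold change of -0.21 (standard error 0.02; DESeq2, adjusted p = 6.12e-22). SLC1A3 (EAAT1), a glutamate importer best known from astrocytes, had 210, 204 and 154 with GFP and 110, 110 and 145 with T-MGM. The lowest GFP and highest T-MGM library lay close together, and the log2 fold change was -0.63 (standard error 0.17; DESeq2, adjusted p = 0.00123). SLC1A5 (ASCT2), the glutamine exchanger, did not pass, at 0.05 with a 95% interval of -0.00 to 0.11, and its sign changed to -0.08 on the TPM scale. The ratio of SLC1A4 to SLC1A5 therefore went from 2.10 ± 0.024 to 1.74 ± 0.038, and that of SLC38A2 to SLC1A5 from 1.52 ± 0.052 to 1.76 ± 0.0078.

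The last families gave a mixed picture. Among the 3 members of SLC43, SLC43A2 (LAT4), a carrier of branched-chain amino acids, had 394, 411 and 363 normalized counts with GFP and 558, 614 and 630 with T-MGM, a log2 fold change of 0.62 (standard error 0.09; DESeq2, adjusted p = 7.54e-11). Its difference on the TPM scale was 0.36 and did not pass (limma, adjusted p = 0.105). The abundant SLC43A3 passed lower by only 0.05 on the log2 scale (DESeq2, adjusted p = 0.0061), a result that no longer passed without GFP replicate 2 (0.0574) or GFP replicate 3 (0.0634). Its difference on the TPM scale was -0.31. The 194 genes within 10 Mb had a median of 0.25. SLC43A1 (LAT3) did not pass, at 0.07 with a 95% interval of -0.16 to 0.30. Neither tested member of SLC36, the proton-coupled carriers of lysosome and plasma membrane, passed: SLC36A1 stood at 0.05 (95% interval -0.07 to 0.18) and SLC36A4 at -0.06 (-0.22 to 0.10).

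Promoters of 2 further members that changed are printed because they hold motifs of MAF proteins and of ATF4. Each gene also has other RefSeq windows, without the letters marked. In SLC43A2 the capitals mark TGCTGA, the core of the site that MAF proteins bind. In SLC1A3 they mark TGATGCAA, a match to the ATF4 response element core TGATGNAA, and TCAGCA, which is TGCTGA on the other strand.

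SLC43A2, chr17:1628908-1628967, minus strand: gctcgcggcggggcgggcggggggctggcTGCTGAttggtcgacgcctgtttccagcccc

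SLC1A3, chr5:36596348-36596427, plus strand: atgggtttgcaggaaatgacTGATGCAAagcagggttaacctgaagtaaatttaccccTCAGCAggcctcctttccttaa

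RefSeq windows, from 250 bases before to 50 bases after a start, were at hand for 64 of the 87 members, with 95 windows among them. Both strands were searched, and TGCTGA and TGACNNNGC can share letters. CACGTG was in 13.7% of the 95 transporter windows and in 7.26% of all 35116 promoters. The shares were 4.21% and 2.92% for TCATGTG, 16.8% and 17.3% for TGCTGA, 8.42% and 13.3% for TGACNNNGC, and 7.37% and 3.62% for TGATGNAA. Among the 21 windows of transporters that passed higher, 1 held CACGTG, 1 TCATGTG, 4 TGCTGA, 3 TGACNNNGC and 3 TGATGNAA. Among the 9 windows of those that passed lower, none held CACGTG or TCATGTG, 1 held TGCTGA, 2 TGACNNNGC and 2 TGATGNAA. These are matches of letters and do not show binding. SLC16A6, SLC6A15, SLC7A11, SLC2A3, SLC6A6, SLC7A2 and SLC43A3 had no window.

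Genes related to these transporters were then followed in 7 lists, 66 genes in all. Of these 60 were tested, 29 passed higher and 15 lower, where 19.2% of all tested genes passed in each direction. Many are abundant: of the 35 that averaged 1000 normalized counts or more, 30 passed, against 68% of such genes in the whole table. The first list was drawn up as possible chaperones and regulators of the carriers. In it EMB, which escorts MCT proteins, was called (log2 fold change 1.61, standard error 0.58; DESeq2, adjusted p = 0.0162). EMB had 7.20, 8.66 and 9.14 normalized counts with GFP and 37.4, 28.3 and 11.1 with T-MGM. Its abundant counterpart BSG, the usual partner of MCT1 and MCT4, rose by 0.12. On the TPM scale BSG was level, at 324 ± 2.36 with GFP and 324 ± 7.6 with T-MGM (SD, n = 3 each). STARD7 fell by 0.27 and ITM2B rose by 0.31 on the log2 scale, the largest Wald statistics of the list. A role of STARD7 or ITM2B with these carriers was not tested. The list had 4 genes higher and 2 lower of 7 tested.

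Among genes of glucose phosphorylation and lactate or pyruvate handling, 5 of 9 tested passed higher and 3 lower. LDHA, the lactate dehydrogenase subunit that favours lactate formation, had 83266, 82548 and 82921 normalized counts with GFP and 113754, 110515 and 112478 with T-MGM, a log2 fold change of 0.44 (standard error 0.01; DESeq2, adjusted p = 7.39e-263). The hexokinase HK1 rose by 0.32 (standard error 0.02). LDHB, the subunit that favours pyruvate, passed lower at -0.18, and both subunits of the mitochondrial pyruvate carrier passed lower too, MPC1 at -0.40 and MPC2 at -0.23.

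Genes of amino acid metabolism followed. For glutamine, glutamate, aspartate and proline, 7 of 9 tested genes passed higher and 1 lower. GOT2, a mitochondrial aspartate aminotransferase, rose by 0.22. For serine, glycine and cysteine, 5 of 11 passed higher and 2 lower. PSAT1, the aminotransferase of serine synthesis, was called, from 609, 618 and 668 to 1291, 1345 and 1311 normalized counts (log2 fold change 1.06, standard error 0.06; DESeq2, adjusted p = 3.30e-60), and PHGDH, which starts that pathway, rose by 0.25. The lower genes were CTH, which makes cysteine from cystathionine (-0.64), and GCLM, a subunit of the rate-limiting enzyme of glutathione synthesis (-0.29).

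The amino acid starvation response was split, with 3 genes higher and 4 lower of 9 tested. ATF4, its main transcription factor, rose by 0.25 (standard error 0.02; DESeq2, adjusted p = 3.30e-43), as did DDIT4 (0.25), an inhibitor of mTORC1. VLDLR rose by 0.30 (DESeq2, adjusted p = 2.63e-06). DDIT3, TRIB3 and SESN2 passed lower, at -0.47, -0.38 and -0.27, and so did CEBPB, at -0.27. For branched-chain amino acid breakdown and leucine sensing, 2 of 7 passed higher, BCKDHB (0.33) and BCKDHA (0.24), and none lower. For glycine, GABA and creatine handling, 3 of 8 passed higher and 3 lower. GLDC, a glycine-cleaving enzyme, fell by 0.89 (standard error 0.08; DESeq2, adjusted p = 8.69e-26), and CKB, a creatine kinase, rose by 0.56 (standard error 0.05; DESeq2, adjusted p = 4.08e-24). CKMT1A was called at 1.43, but CKMT1B is a near-identical copy, so both are uncertain.

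**Figure D5:**
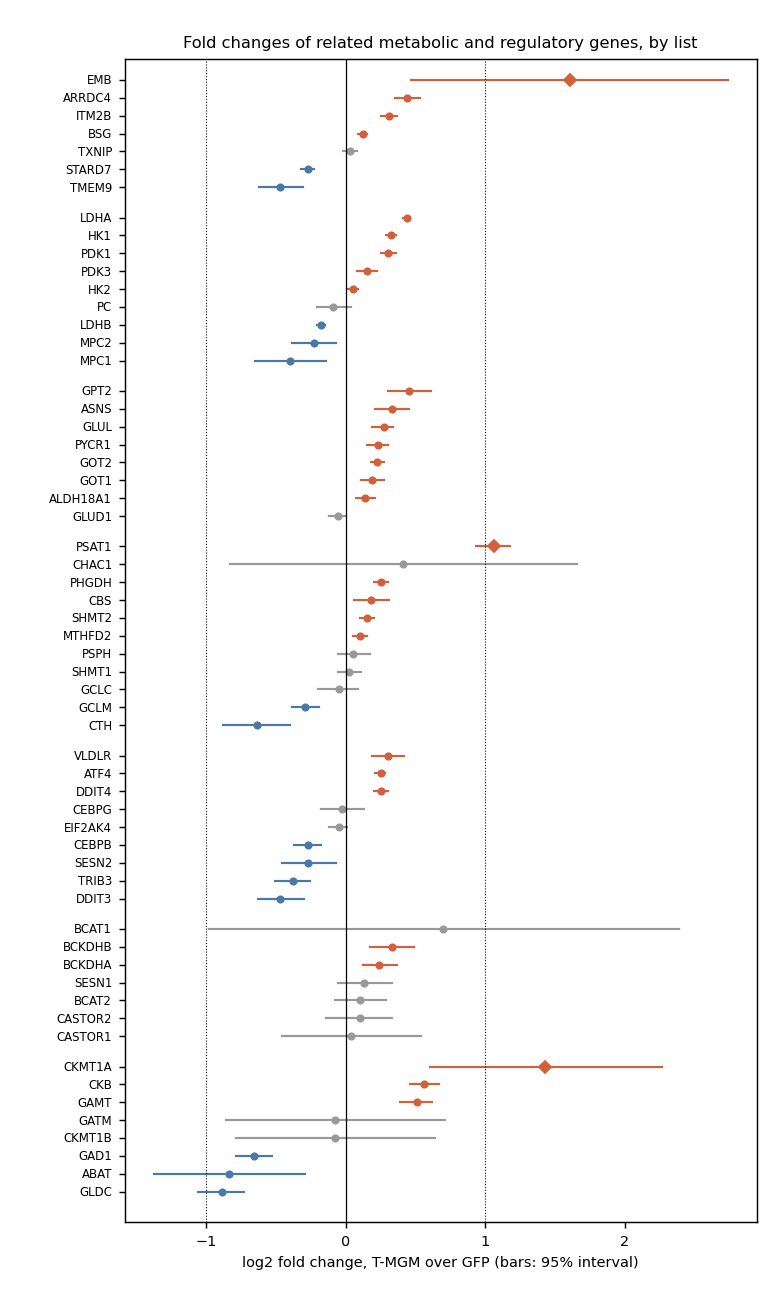
Log2 fold change of T-MGM over GFP (horizontal axis) with its 95% interval for tested genes of the 7 related lists, a block for each list in the order of the text. Red marks genes that passed higher, blue genes that passed lower and grey the rest; diamonds mark EMB, PSAT1 and CKMT1A, which changed over 2-fold.

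Many members were at or near the floor. Families SLC6 and SLC7 contributed 15 of the 30 genes at the floor, among them the intestinal and renal carriers SLC6A18, SLC6A19 and SLC7A9. SLC3A1, the heavy chain that partners SLC7A9, had at most 3 counts. SLC38A11 had 5, 6 and 0 raw counts with GFP and no count with T-MGM, too few for a test.

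GC content moved with the fold changes over the whole table. Across genes averaging 50 normalized counts or more, Spearman's rho between GC content and log2 fold change was 0.376, given as a description over genes that share libraries. After an offset for GC content and length, SLC7A5 stood at 0.59, SLC16A3 at 0.36, SLC7A11 at -0.57, SLC6A15 at -1.07 and SLC16A6 at -1.59. All 5 kept their direction and stayed past the threshold. The offset was not applied to the ratios within libraries, whose genes can differ in GC content. SLC16A3 had 62.65% and SLC16A1 43.48%, and SLC1A4 had 46.48% and SLC1A5 61.28%. SLC16A10 (DESeq2, adjusted p = 0.0879), SLC38A6 (0.0656) and SLC7A1 (0.984) no longer passed, and SLC1A5 passed lower at -0.08 (0.0257). The rises of SLC6A8 and SLC38A10 shrank to 0.08 and 0.15, and that of SLC38A2 grew to 0.42. The melanocytic and fibroblast markers moved with the groups, as given above, and their part in these results was not tested.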

How the data were processed

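Raw counts per gene and TPM values were deposited for 3 GFP and 3 T-MGM libraries. The authors trimmed reads with cutadapt 1.8.1, aligned them to GRCh38 with STAR 2.7.7a and counted uniquely aligned reads with featureCounts. The counts deposited are unscaled whole numbers. The deposited TPM values, scaled by the authors for transcript length and depth, are rounded to 2 decimals, and the submitters' processing notes name RSEM 1.3.0. The annotation release is not given in the sources used here. The labels name a kit without and the study's methods a kit with strand information, so genes overlapped on the other strand (55 of the 87 members in GENCODE 44) are uncertain.

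Counts were tested with DESeq2 1.42.0 in R 4.3.3 (group as the only term, 2-sided Wald test, Benjamini-Hochberg adjustment over all genes tested). A gene passed at an adjusted p at or under 0.05 and was called when the absolute log2 fold change was also over 1. Normalized counts are counts divided by DESeq2 size factors. An exact permutation test of 3 against 3 libraries cannot go below 0.10 and was not used. Intervals are 95% and floors cover counting error only, since reads are not independent molecules. Alternatives were edgeR 4.0.16, TMM factors, total counts, a minimum of 10 counts in 3 libraries, the replicate number as a block, each library left out, limma 3.58.1 on log2 TPM plus 1 or 0.1 (with and without a minimum of 0.5), and offsets for GC content and length (lowess span 0.3). Medians of neighbouring genes and ratios within libraries were added after the data were seen. Fits were tested on simulated data.

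Members, lists and tests were chosen with earlier results of these data known. The genes named are those called, the 10 with the highest TPM, the 12 with the largest change of 2-fold or less among members that passed and averaged 100 normalized counts or more, a list of well-known members, counts of 5 or fewer spelled out, and in each related list those called and the 2 largest Wald statistics. Single floor genes and sets of genes beyond this were chosen after their values were seen. A withheld result of the related lists is not reported here and is left out of their plot.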

Additional observations from a re-analysis of the deposited data

How the results depend on the processing

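The 4 called transporters, SLC6A9, SLC38A1, SLC6A15 and SLC16A6, were called in the same direction in all 12 alternatives based on counts. On TPM values, where the median gene stood at -0.13 to -0.15, 0 transporters were called higher with a pseudocount of 1, 1 (SLC6A9) with 0.1 and 0 without a filter, and 2 were called lower in each (SLC6A15 and SLC16A6). SLC38A1, at most 0.17 TPM in any library, had no value in the fits with a minimum TPM and was not tested there. Without that filter SLC38A1 passed higher at 0.15 (limma, adjusted p = 0.0116) but was not over 2-fold. In all 3 TPM fits 6 transporters passed higher instead of 14. Related genes that passed higher numbered 9, 9 and 8 in those fits instead of 29. Leaving out a library gave 12 to 14 transporters higher and 7 to 13 lower, 25 to 29 related genes higher and 11 to 15 lower. Over all genes, 133, 369 and 126 were called on TPM against 885 on counts. The cause of this difference over all genes was not tested.

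The replicate block gave 12 transporters passing higher and 9 lower, the same 4 called, and 735 genes called in all. Deviations of same-numbered libraries correlated at -0.00665, -0.0579 and 0.0291, so the numbers are not taken to pair them.

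Small changes turned their sign. SLC2A3 was -0.10 in all 3 TPM fits, SLC7A1 -0.01 with total counts and -0.11 on TPM, where it passed lower, SLC1A5 -0.08 on TPM and -0.08 with the GC offset, SLC16A1 0.01 with the GC offset, SLC36A1 -0.0007 with total counts and -0.0032, -0.0035 and -0.0032 on TPM, and SLC43A1 -0.06, -0.07 and -0.06 on TPM and -0.04 with the GC offset. Of 418 values for 28 named transporters under the 15 alternatives, 346 kept direction and side of the threshold. Depth limits SLC38A1, with 2 to 55 counts a library.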
